A study of Mus musculus with 10 samples.

Results

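The miR-143 and miR-145 cluster was followed through small extracellular vesicles of C57BL/6J mice. Its members were the 3 rows named miR-143-3p, miR-145a-5p and miR-145a-3p, taken by name from both deposited tables, out of 721 miRNAs listed in either table (679 for brown fat, 436 for plasma, 394 in both). They were isolated from plasma or from brown adipose tissue (BAT), and their small RNA made 10 sequenced libraries: Exe BAT (3), Sed BAT (3), Exe plasma (2) and Sed plasma (2). The series is described as a comparison before and after exercise, so Exe is read as the exercised group and Sed as the group without it, although the labels attach the same schedule (90 min sessions, 2 per day, for 4 weeks) to every sample, Sed included. No genotype beyond the strain, and no agent, is named for any group. The labels give no age and no number of animals behind a library. No label calls the replicates separate animals, so each p-value reflects library-to-library spread alone, part of which can be technical.

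miR-143 and miR-145 are cut from neighbouring hairpins of 1 long primary transcript, which is made mainly in vascular and visceral smooth muscle under control of serum response factor and myocardin. Together they favour the contractile over the proliferative state of smooth muscle cells. From each hairpin 2 strands can be kept: miR-143-3p and miR-145a-5p are the guide strands that load into Argonaute, while miR-145a-3p and miR-143-5p are the usually discarded passenger strands. In fat, the cluster is known from the vessel walls and from preadipocytes, and miR-143 has been tied to adipocyte differentiation and to insulin signalling.

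The miRNAs whose levels ran closest to those of the members across the 6 BAT libraries are shown here because the pattern described at the end turns on them. All 6 that were looked up matched a mature sequence in RefSeq (GRCm38.p6). Capitals mark the seed, bases 2 to 8 from the 5′ end, which pairs with targets.
miR-181c-5p: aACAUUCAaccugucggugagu
miR-144-3p: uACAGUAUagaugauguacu
miR-27a-3p: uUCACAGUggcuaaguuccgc
miR-574-3p: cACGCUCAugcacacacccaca
miR-451a: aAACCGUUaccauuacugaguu
miR-128-3p: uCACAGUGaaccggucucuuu
The last, miR-128-3p, follows miR-145a-5p, and the others follow miR-143-3p. The 6 carry 6 distinct seeds, although miR-27a-3p and miR-128-3p share a run of 8 bases that holds both of their seeds. miR-144-3p (chr11:78073047-78073066, plus strand) and miR-451a (chr11:78073186-78073207, plus strand) are neighbours, a red cell pair cut from 1 transcript. miR-181c-5p (chr8:84178924-84178945, minus strand) and miR-27a-3p (chr8:84208727-84208747, plus strand) lie on another chromosome, and miR-574-3p lies at chr5:64970364-64970385 on the plus strand.

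The libraries differed in depth by source. The BAT libraries held 116584 to 172279 miRNA reads in Exe and 104064 to 169345 in Sed, and the plasma libraries 1209116 and 1766070 in Exe and 1341678 and 1798169 in Sed. Sed BAT replicate 2 stood apart from the other BAT libraries. The 6 brown adipocyte marker miRNAs summed to 6.69% of its miRNA reads, against 18.3% to 30.1% in the other 5. That gap was miR-378a-3p, at 3.655% there and 16.7% to 27.1% in the other 5. The remaining brown adipocyte markers together were not lower there. The 2 endothelial markers summed to 10.6%, against 4.96% to 8.49%, and the 5 skeletal muscle markers to 5.59%, against 2.51% to 3.56%. Red cell markers (4 miRNAs led by miR-451a) made up 12.5% and 14.0% of reads in Exe plasma, against 70.0% and 52.8% in Sed plasma. No pair of libraries held identical counts.

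miR-143-3p was among the most abundant miRNAs of BAT vesicles and was roughly an order of magnitude scarcer, as a share of reads, in plasma vesicles. Its reads numbered 5383, 7860 and 13267 in Exe BAT and 13885, 3522 and 6819 in Sed BAT. These were 4.62%, 4.95% and 7.70% of the miRNA reads in Exe BAT, and 8.20%, 3.38% and 5.87% in Sed BAT. It ranked 4th, 4th and 3rd among the miRNAs of the Exe BAT libraries and 3rd, 11th and 4th among those of the Sed BAT libraries. The lowest and the highest BAT library were both Sed, so the Exe values lay wholly inside the Sed range. In plasma, 4730 and 3198 reads in Exe and 4664 and 6914 reads in Sed were 0.391% and 0.181% of miRNA reads in Exe plasma and 0.348% and 0.385% in Sed plasma. The plasma groups overlapped on this scale as well, with the lowest and the highest library both Exe.

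miR-145a-5p, the guide strand of the second hairpin, had close shares in the BAT libraries and far apart ones in plasma. It had 1437, 1673 and 1946 reads in Exe BAT and 1684, 1429 and 965 in Sed BAT. As shares these were 1.23%, 1.05% and 1.13% of miRNA reads in Exe BAT, and 0.994%, 1.37% and 0.831% in Sed BAT, so the Exe libraries again fell within the Sed range. The highest Exe BAT share was 1.17 times the lowest, and the highest Sed BAT share 1.65 times the lowest. In plasma the reads were 631 and 23 in Exe and 9 and 61 in Sed. The share in Exe plasma replicate 1, 0.0522% (exact 95% binomial interval 0.0482 to 0.0564), was 40.1 times that in Exe plasma replicate 2, 0.0013% (0.000826 to 0.00195). The Sed plasma shares were 0.000671% (0.000307 to 0.00127) and 0.00339% (0.0026 to 0.00436), so 1 Exe library lay above both Sed libraries and the other between them.

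miR-145a-3p, the passenger strand of miR-145a, was counted in every BAT library but at low depth. It had 20, 17 and 20 reads in Exe BAT and 39, 13 and 25 in Sed BAT. The shares were 0.0172%, 0.0107% and 0.0116% in Exe BAT and 0.023%, 0.0125% and 0.0215% in Sed BAT, and the groups overlapped. Plasma gave 6 and 0 reads in Exe and 0 and 8 in Sed. With a floor of 3 reads, the 0 in Exe plasma replicate 2 allows a share of up to 0.00017% and the 0 in Sed plasma replicate 1 up to 0.000224%. Intervals and floors here cover counting error only, since reads without molecular identifiers are not independent molecules. The other passenger strand, miR-143-5p, had 5, 1 and 0 reads in Exe BAT, 1, 0 and 0 in Sed BAT, 1 and 0 in Exe plasma and none in Sed plasma. miR-145b was not listed under that name for either source.

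**Figure D1:**
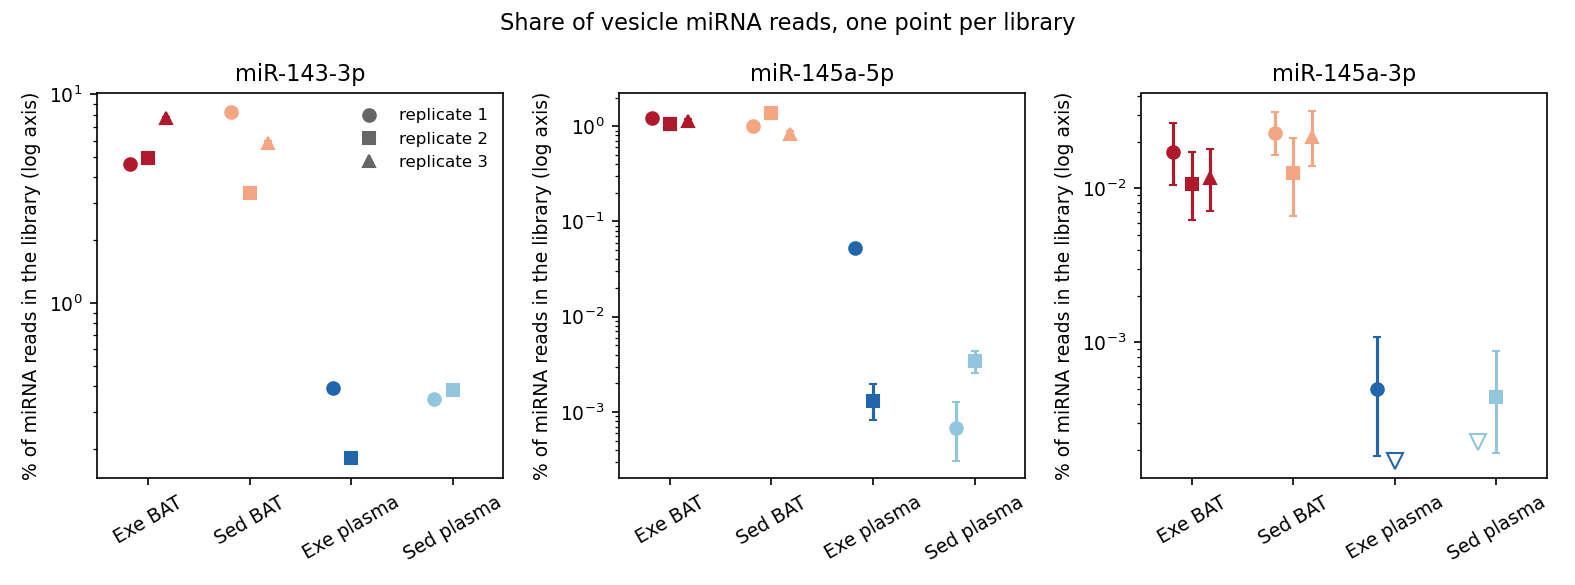
Each point is 1 library; the vertical axes (log scale) give the member's percent of miRNA reads, with exact 95% binomial intervals, and open triangles mark the limit that a count of 0 allows. All BAT libraries lie above all plasma libraries for each member, and Exe and Sed BAT overlap throughout.

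Ordered by mean share of reads, miR-143-3p ran from Sed BAT through Exe BAT and Sed plasma down to Exe plasma, and miR-145a-5p from Exe BAT through Sed BAT and Exe plasma down to Sed plasma. miR-143-3p averaged 5.76% ± 1.69 in Exe BAT and 5.82% ± 2.41 in Sed BAT (SD, n = 3 each), and 0.286% ± 0.149 in Exe plasma and 0.366% ± 0.0261 in Sed plasma (SD, n = 2 each). Within each source these neighbours differed by less than the SD of the Exe group. miR-145a-5p averaged 1.14% ± 0.0898 in Exe BAT and 1.07% ± 0.278 in Sed BAT, and 0.0268% ± 0.036 in Exe plasma and 0.00203% ± 0.00192 in Sed plasma. Its SD in Exe plasma exceeded its mean, so the plasma groups do not differ beyond their spread. miR-145a-3p averaged 0.0132% ± 0.00349 in Exe BAT and 0.019% ± 0.0057 in Sed BAT. In a bulk vesicle preparation, fewer vesicles from a cell type and less of a miRNA per vesicle cannot be told apart.

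The first comparison asked what exercise changed in BAT vesicles. None of the 3 members passed an adjusted p of 0.05 in edgeR's quasi-likelihood test, where 45 of 199 tested miRNAs, 22.6%, did (9.55% higher and 13.1% lower in Exe). On the scale of trimmed means of M values (TMM), in counts per 1000000 scaled reads (CPM), miR-143-3p was at 46793, 50865 and 83359 CPM in Exe BAT and 88473, 26390 and 61933 CPM in Sed BAT. The fold change on the log2 scale was 0.03 ± 0.44 (SE, adjusted p = 0.955), with a 95% interval of -0.95 to 1.02, or 0.516-fold to 2.03-fold. miR-145a-5p was at 12491, 10827 and 12227 CPM in Exe BAT and 10730, 10707 and 8765 CPM in Sed BAT. On this scale its groups just failed to overlap, which 21.1% of tested miRNAs did in the same direction and 23.1% in the other, while the shares above did overlap. Its log2 fold change was 0.23 ± 0.21 (SE, adjusted p = 0.439, 95% interval -0.24 to 0.71). For miR-145a-3p the value was -0.50 ± 0.39 (SE, adjusted p = 0.368, interval -1.38 to 0.38). Without Sed BAT replicate 2, the library that stood apart, the values were -0.23 for miR-143-3p, 0.36 for miR-145a-5p and -0.74 for miR-145a-3p. Again 0 of the 3 passed, where 56 of 225 tested miRNAs did.

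With the Exe and Sed groups of BAT set side by side as 1 sum, the cluster took 5.87%, 6.01% and 8.84% of miRNA reads in Exe BAT and 9.22%, 4.77% and 6.73% in Sed BAT. The means were 6.91% ± 1.68 in Exe BAT and 6.91% ± 2.23 in Sed BAT (SD, n = 3 each, two-sided exact permutation p = 1, adjusted 1). The BAT table also holds reads per 1000000 (RPM) scaled by the authors to a larger total, of which miRNA reads were 0.492% to 0.904%. On that deposited scale miR-143-3p was at 284.4, 405 and 696.4 RPM in Exe BAT and 680.2, 166.4 and 331.9 RPM in Sed BAT, and the groups overlapped there too.

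The comparison of Exe with Sed in plasma had 2 libraries a group. None of 182 tested miRNAs passed with edgeR (percent called, 0%), while 60 had an unadjusted p under 0.05, and DESeq2 called 59 and limma-voom 35. miR-143-3p stood at 2629 and 1706 CPM in Exe plasma and 5405 and 3905 CPM in Sed plasma. The groups did not overlap on this scale, as for 30.8% of tested miRNAs in that direction and 28.6% in the other, although the raw shares did. The log2 fold change was -1.10 ± 0.87 (SE, adjusted p = 0.427), with a 95% interval of -3.22 to 1.01. With library size alone as the scale it was -0.36, the median of all tested miRNAs moving to 0.94, against 0.32 with TMM. Relative to that median it was -1.42 with TMM and -1.30 with library size alone, but the distance ran from -3.47 to 0.46 over 15 settings and was above 0 without either Exe plasma library (0.46 without replicate 1, 0.19 without replicate 2). Without Exe plasma replicate 2 the fold change itself was -0.25.

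miR-145a-5p was at 350.7 and 12.3 CPM in Exe plasma and 10.4 and 34.5 CPM in Sed plasma. Its log2 fold change was 3.01 ± 2.29 (SE, adjusted p = 0.417, 95% interval -2.57 to 8.58). One library decided this value: without Exe plasma replicate 1 it was -0.65, and without Exe plasma replicate 2 it was 4.59. miR-145a-3p did not pass the filter on low counts in plasma. With no filter its log2 fold change was -0.32 ± 3.14 (SE, adjusted p = 0.934).

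The plasma table holds a second whole number beside each read count, never above it, whose making is not stated. For miR-143-3p it was 4546 and 3108 in Exe plasma, close to the read counts, and 3518 and 507 in Sed plasma. Reads per unit of this number were thus 1.04 and 1.03 in Exe plasma and 1.33 and 13.6 in Sed plasma. Over all miRNAs the same quotient was 1.41 and 1.64 in Exe plasma and 3.31 and 21.4 in Sed plasma and its median over single miRNAs 1.02 and 1.01 in Exe plasma and 1.78 and 5.37 in Sed plasma. The quotient of miR-143-3p was below the overall one in each library and above the median in 3 of 4, Sed plasma replicate 1 being the exception. For miR-145a-5p the second number was 619 and 23 in Exe plasma and 3 and 9 in Sed plasma, with the same library highest.

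**Figure D2:**
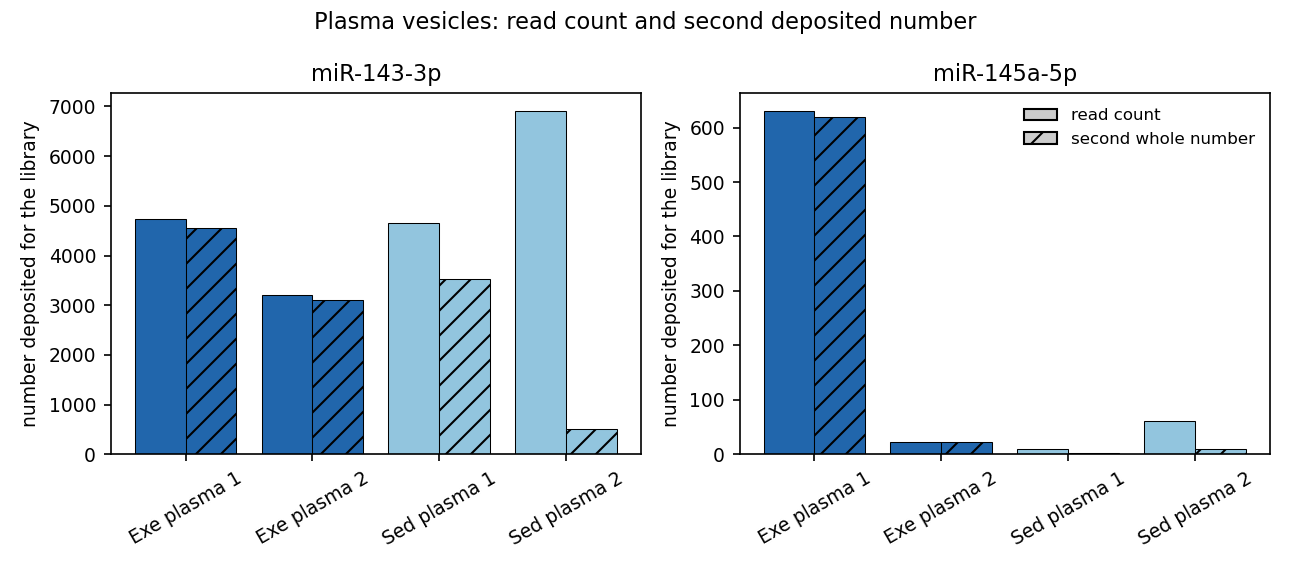
Bars give the read count (plain) and the second deposited whole number (hatched) of each plasma library, on linear axes from 0. For miR-143-3p the pair differs most in Sed plasma replicate 2 (6914 and 507), and for miR-145a-5p Exe plasma replicate 1 exceeds the other 3 libraries in both numbers.

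BAT against plasma was tested in a joint fit of the 4 groups over miRNAs present in both tables. In it, the vesicle source cannot be told apart from the table or from a sequencing batch. In Exe libraries all 3 members were higher in BAT vesicles, as were 41% of 234 tested miRNAs, while 25.6% were lower (66.7% called in all). Their BAT and plasma values did not overlap, which held for 49.1% of tested miRNAs in that direction and 30.3% in the other. miR-143-3p averaged 35076 ± 12254 CPM in Exe BAT and 4826 ± 3081 CPM in Exe plasma on the joint scale (SD, n = 3 and 2), which gave a log2 fold change of 2.86 ± 0.63 (SE, edgeR adjusted p = 0.00326), or 7.27-fold with a 95% interval of 2.77 to 19.1. miR-145a-5p averaged 6889 ± 864 CPM in Exe BAT and 477 ± 647 CPM in Exe plasma, with a log2 fold change of 3.85 ± 1.34 (SE, edgeR adjusted p = 0.026). That value was 8.51 without Exe plasma replicate 1, the library richest in this miRNA in plasma. With the replicate number as a block it was 4.08 and did not pass (edgeR adjusted p = 0.0666). miR-145a-3p, with 57 reads over Exe BAT and 6 over Exe plasma, had a log2 fold change of 4.18 ± 1.66 (SE, edgeR adjusted p = 0.045) and passed in 11 of its 19 alternatives. All of those 6 plasma reads came from Exe plasma replicate 1. In plasma alone miR-145a-3p did not pass the filter on low counts. It entered the joint fit through its BAT reads, where it is high, so its call is not independent evidence.

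In Sed libraries 1 of the 3 members, miR-145a-5p, passed. It averaged 5764 ± 814 CPM in Sed BAT and 70.3 ± 69 CPM in Sed plasma, a log2 fold change of 6.35 ± 1.53 (SE, edgeR adjusted p = 0.00755, 95% interval 2.95 to 9.74). It was thus called higher in BAT, as were 22.2% of tested miRNAs, while 20.1% were lower (42.3% called in all). No member's values overlapped between Sed BAT and Sed plasma, as for 48.7% of tested miRNAs in that direction and 19.7% in the other. Without Sed plasma replicate 1 miR-145a-5p was at 5.64 with an adjusted p of 0.0528 (edgeR), over the threshold, and its adjusted p ranged from 1.94e-09 to 0.0528 over 20 alternatives. miR-143-3p averaged 32996 ± 16086 CPM in Sed BAT and 12325 ± 1669 CPM in Sed plasma, a log2 fold change of 1.42 ± 0.58 (SE, edgeR adjusted p = 0.0751), which did not pass. Without Sed BAT replicate 2 it was 1.96 and passed (edgeR adjusted p = 0.0133). miR-145a-3p was at 3.70 ± 1.62 (SE, edgeR adjusted p = 0.0938), with 77 reads over Sed BAT and 8 over Sed plasma.

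How far miR-143-3p in BAT stood above plasma depended on the scale, and the median of all tested miRNAs moved with it. In Sed, miR-143-3p was at 1.42 with TMM and at 4.00 with library size alone (edgeR adjusted p = 0.000641), against medians of 1.21 and 3.84. Relative to the median it was thus at 0.21 and 0.16, and from -0.88 (without Sed plasma replicate 2) to 1.46 (at a mean of at least 50 reads) over 21 settings. In Exe it was at 2.86 with TMM and at 4.35 with library size alone, against medians of 0.90 and 2.43, which puts it at 1.96 and 1.92 above the median. Without Exe plasma replicate 1, however, it lay 0.33 below the median of that fit (-0.33). The distance of miR-145a-5p from the median was 5.13 with TMM and 5.19 with library size alone in Sed, and 2.954 and 3.003 in Exe. Over 21 settings it ran from 4.52 to 6.58 in Sed and from 1.38 to 5.66 in Exe.

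The difference of the exercise effects between sources passed for no member, where 29.1% of 234 tested miRNAs passed (16.7% higher and 12.4% lower). For miR-143-3p the effect in BAT minus the effect in plasma was 1.44 ± 0.79 on the log2 scale (SE, edgeR adjusted p = 0.183). It was 2.62 with upper-quartile factors, where it passed (adjusted p = 0.0166, edgeR), 2.32 without Exe plasma replicate 1, where it also passed (adjusted p = 0.0476, edgeR), and 0.35 with library size alone. For miR-145a-5p it was -2.49 ± 1.62 (SE, edgeR adjusted p = 0.25). This value too turned on 1 library, at 2.14 without Exe plasma replicate 1, and at -3.31 without Exe plasma replicate 2, where it passed (adjusted p = 0.0211, edgeR). For miR-145a-3p it was 0.48 ± 1.89 (SE, edgeR adjusted p = 0.863), and it changed sign with single plasma libraries, at -4.28 without Sed plasma replicate 2 and 4.31 without Exe plasma replicate 1. Each of these leaves 1 plasma group at 0 reads, so the fitted value depends on the prior count and is no bound.

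**Figure D3:**
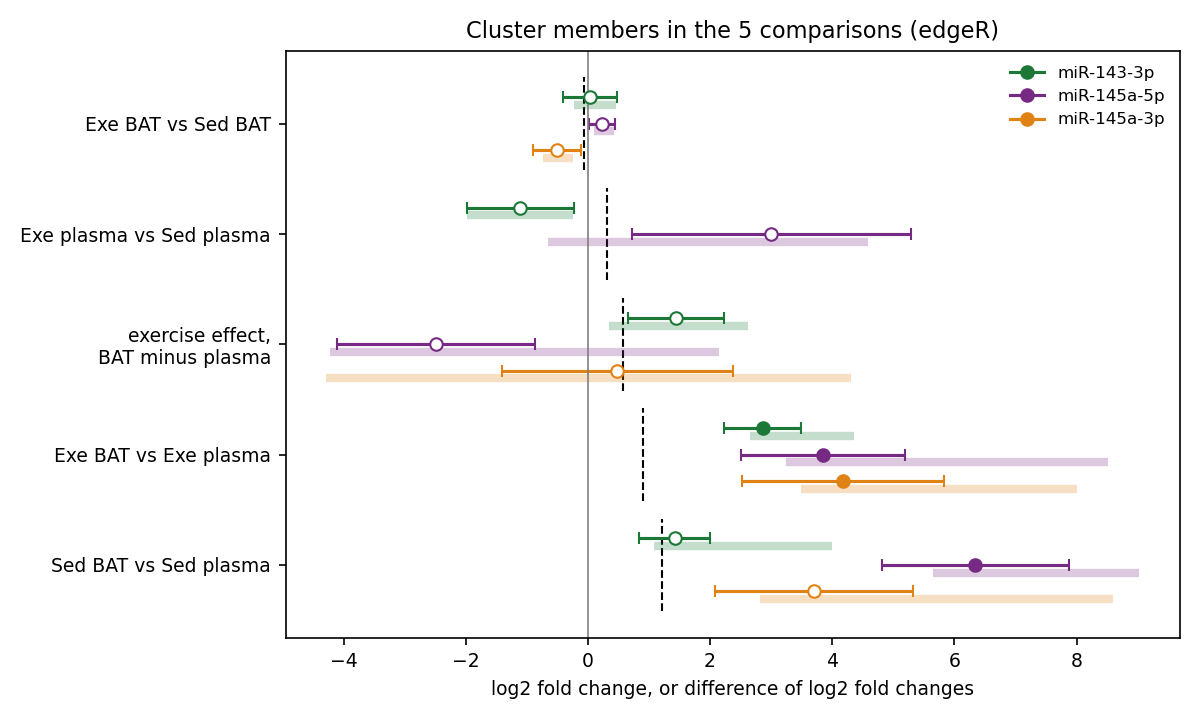
Points give log2 fold changes with SE (the middle rows give the difference of 2 fold changes), filled where the edgeR adjusted p is under 0.05; pale bars span the alternatives and dashed lines mark the median of all tested miRNAs. Exercise comparisons hold open points only, and miR-145a-5p is filled in both comparisons of BAT with plasma.

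The ratio of the guide strands, miR-143-3p over miR-145a-5p, does not depend on how libraries are scaled. It was 3.75, 4.7 and 6.82 in Exe BAT and 8.25, 2.46 and 7.07 in Sed BAT. In plasma it was 7.5 and 139 in Exe and 518 and 113 in Sed, with an exact 95% interval of 6.9 to 8.16 for the first of these and 273 to 1130 for the third. Exe plasma replicate 1 thus lay within the range of the BAT libraries, and the other 3 plasma libraries at least an order of magnitude above it. miR-143-3p alone made up 71.0% to 89.0% of the cluster's reads in BAT and 88.1% to 99.8% in plasma.

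Tests of this ratio had little room, since 3 libraries against 2 cannot go below an exact permutation p of 0.2. As mean log2 ratios, it was 2.30 ± 0.44 in Exe BAT and 4.997 ± 2.96 in Exe plasma (two-sided exact permutation p = 0.2, adjusted 0.48), and 2.39 ± 0.95 in Sed BAT and 7.88 ± 1.504 in Sed plasma (exact permutation p = 0.2, adjusted 0.48). In neither did the groups overlap. Exe minus Sed was -0.09 in BAT (exact permutation p = 0.9, where 0.1 is the smallest possible) and -2.88 in plasma (exact permutation p = 0.667, where 0.333 is the smallest). The adjustment covers 12 tests.

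The strand ratio of the second hairpin, miR-145a-5p over miR-145a-3p, was 71.8, 98.4 and 97.3 in Exe BAT and 43.2, 110.0 and 38.6 in Sed BAT. The difference of the mean log2 ratios was 0.63 (two-sided exact permutation p = 0.4, adjusted 0.686). The groups overlapped, with Sed BAT replicate 2 both the highest and the library that stood apart. In plasma it was 105 in Exe replicate 1, with an exact interval of 48 to 288, and 7.62 in Sed replicate 2, with an interval of 3.64 to 18.5. In the 2 libraries with no miR-145a-3p read, its exact 95% lower limit was 5.75 in Exe replicate 2 and 1.97 in Sed replicate 1. Guide strand reads over a floor of 3 reads gave 7.67 and 3.0, which leaves out counting error in the guide strand. The guide strand outnumbered the passenger strand in every library where both had reads.

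**Figure D4:**
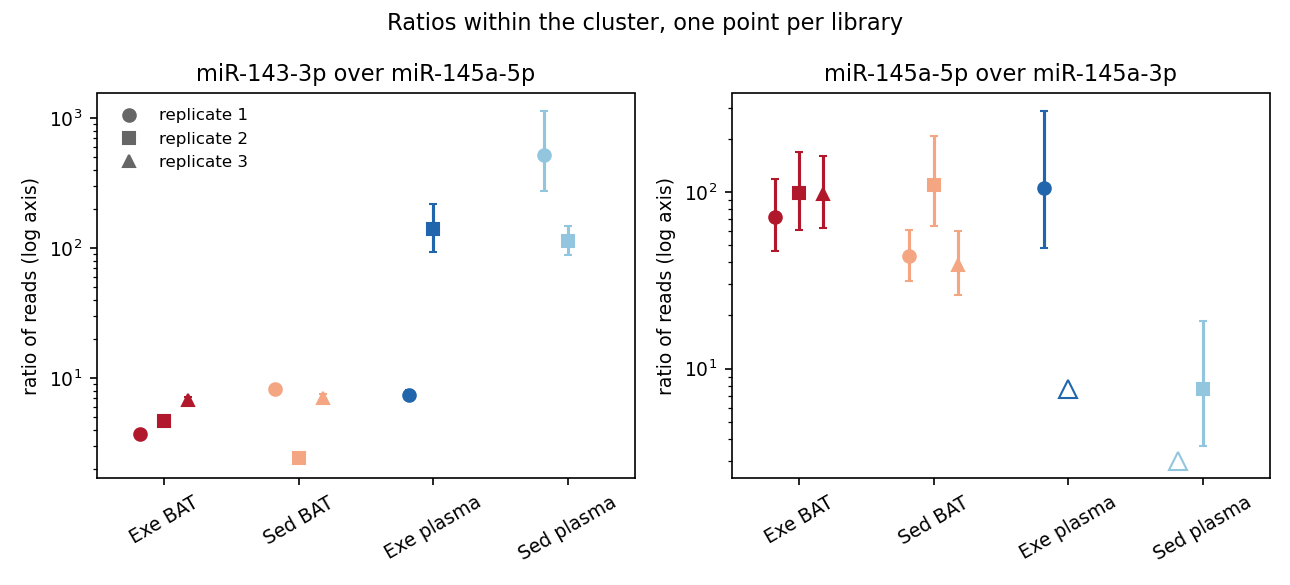
Each point is 1 library, with exact 95% intervals on log axes. Open triangles give guide strand reads over a floor of 3 where the passenger strand had 0 reads, without counting error in the guide strand. The left panel puts Exe plasma replicate 1, at 7.5, among the BAT libraries, and the other 3 plasma libraries at 113 and above.

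Other miRNAs of smooth muscle were read as 2 lists, 1 of 11 miRNAs known mostly from contractile or differentiated muscle and 1 of 9 known mostly from proliferating smooth muscle. In BAT, 8 of the 11 were tested, of which 0 were higher and 2 were lower in Exe, beside 9.55% higher and 13.1% lower over all 199. miR-1a-3p, a miRNA of skeletal and heart muscle, had 754, 1071 and 752 reads in Exe BAT and 2159, 3200 and 1405 in Sed BAT, and fell by 1.47 on the log2 scale (SE 0.30, edgeR adjusted p = 0.0107). The groups did not overlap, as for 23.1% of tested miRNAs in that direction and 21.1% in the other. miR-29b-3p, a repressor of collagen mRNAs, fell by 1.19 (SE 0.26, edgeR adjusted p = 0.0139). The list's median was -0.16, beside -0.06 over all 199. The muscle miRNA miR-133a-3p, with the most reads of the list over the 6 BAT libraries together, was at 0.46 ± 0.24 (SE) and did not pass.

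Of the 9 proliferative miRNAs, 8 were tested in BAT and 0 passed in either direction, beside 9.55% higher and 13.1% lower over all 199. Their median was -0.15, beside -0.06 over all 199. The 4 most abundant were miR-26a-5p at -0.14 ± 0.26, miR-21a-5p at -0.40 ± 0.22, miR-24-3p at 0.68 ± 0.36 and miR-92a-3p at -0.17 ± 0.24 (log2 fold change and SE). In plasma, 0 of 7 contractile and 0 of 8 proliferative miRNAs passed, but so did 0% of all 182, so these counts say nothing about the lists. Their medians were -0.21 and -0.58, beside 0.32 over all 182. The most abundant there were miR-1a-3p (-0.21), miR-10a-5p (3.51), miR-204-5p (-0.47) and miR-195a-5p (-6.81) of the contractile list, and miR-24-3p (-1.62), miR-146a-5p (-0.35), miR-26a-5p (0.38) and miR-21a-5p (-0.81) of the proliferative list. miR-195a-5p had 24 and 0 reads in Exe plasma and 1308 and 1 in Sed plasma. A single library thus carried its value (SE 3.91, edgeR adjusted p = 0.278).

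Between sources, in Sed libraries 0 proliferative miRNAs were higher and 6 of 9 lower in Sed BAT than in Sed plasma, beside 22.2% higher and 20.1% lower over all 234, with a median of -2.06 beside 1.21 over all 234. The 6 were miR-21a-5p (-1.66), miR-222-3p (-3.004), miR-24-3p (-4.55), miR-31-5p (-5.11), miR-146a-5p (-4.90) and miR-92a-3p (-2.06). These values are on the joint TMM scale. As shares of miRNA reads, miR-21a-5p was higher in Sed BAT (1.64%, 1.76% and 1.52%) than in Sed plasma (0.738% and 0.946%). The shares of miR-92a-3p and miR-222-3p overlapped, and those of miR-24-3p, miR-31-5p and miR-146a-5p were lower in Sed BAT. In Exe libraries miR-221-3p (3.36), miR-31-5p (2.96) and miR-17-5p (4.20), each with 9 or fewer reads in every Exe plasma library, were higher in BAT, and miR-222-3p (-4.05), miR-24-3p (-1.67), miR-146a-5p (-4.55) and miR-92a-3p (-3.82) were lower, with a list median of -0.93 beside 0.90 (3 and 4 of 9, beside 41% higher and 25.6% lower over all). As shares of reads, miR-222-3p and miR-24-3p overlapped between Exe BAT and Exe plasma, while miR-146a-5p and miR-92a-3p were lower in Exe BAT. From the contractile list, miR-133a-3p (7.64) and miR-322-5p (4.21) were higher and miR-204-5p (-3.45) was lower in Sed BAT than in Sed plasma, with a list median of -0.26. In Exe BAT miR-133a-3p (6.54) and miR-29b-3p (7.91) were higher and miR-10a-5p (-3.56) and miR-204-5p (-2.46) lower than in Exe plasma, with a list median of 0.91. In plasma miR-133a-3p had 136 and 0 reads in Exe and 28 and 0 in Sed, and miR-29b-3p had 4 and 0 in Exe. Their large values thus rest on few or no plasma reads. The difference of exercise effects passed for miR-29b-3p (5.53), miR-10a-5p (-3.20) and miR-322-5p (-3.30) of the contractile list and for miR-24-3p (2.88), miR-221-3p (5.02) and miR-31-5p (8.08) of the proliferative list, which is 1 higher and 2 lower of 7 and 3 higher and 0 lower of 9, beside 16.7% higher and 12.4% lower over all. The values for miR-29b-3p, miR-221-3p and miR-31-5p rest on the same low Exe plasma counts.

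Across the 6 BAT libraries the 2 guide strands of the cluster had unlike patterns on the TMM scale. Likeness was taken as Pearson's r of log2 CPM with each of 198 other miRNAs, a description over libraries that share their scaling, with no test. The miRNAs most like miR-143-3p were miR-181c-5p (r = 0.979), miR-144-3p (0.943), miR-27a-3p (0.932), miR-574-3p (0.924) and miR-451a (0.856). Its own cluster partners came 25th, for miR-145a-3p (0.613), and 93rd, for miR-145a-5p (0.0216). The r between the guide strands also changed sign with the scale, at -0.593 on percent of miRNA reads and 0.547 on deposited RPM. Over the 5 libraries without Sed BAT replicate 2, these were -0.0541 on TMM CPM, -0.233 on percent and 0.618 on RPM. For miR-143-3p and miR-144-3p the r over all 6 libraries was 0.943 on percent and 0.921 on RPM. Over the 5 without Sed BAT replicate 2 it was 0.921 and 0.848. For miR-143-3p and miR-451a it was 0.759 on percent and 0.91 on RPM over all 6, and 0.903 and 0.97 over the 5.

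The reads behind this likeness were few for some of these miRNAs. miR-144-3p, of the red cell pair shown above, had 26, 34 and 133 reads in Exe BAT and 162, 15 and 81 in Sed BAT. miR-451a, which makes up nearly all red cell marker reads, had 3969, 5528 and 12100 in Exe BAT and 10223, 3901 and 3883 in Sed BAT. Both were highest in Exe BAT replicate 3 and Sed BAT replicate 1, the 2 libraries in which miR-143-3p was highest. The 4 red cell markers together made up 3.45%, 3.53% and 7.14% of reads in Exe BAT and 6.17%, 3.87% and 3.44% in Sed BAT, with only miR-144-5p at 0, in Sed BAT replicate 3. Their part in the level of miR-143-3p was not tested. In plasma, miR-451a had 134144 and 232086 reads in Exe and 936594 and 948848 in Sed.

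The miRNA most like miR-145a-5p in BAT was miR-128-3p (r = 0.936), with 35, 43 and 45 reads in Exe BAT and 30, 24 and 10 in Sed BAT. Next came the let-7c-2-3p and let-7a-1-3p pair (0.852), whose reads are identical and cannot be told apart, then miR-324-3p (0.836) and miR-152-3p (0.824). Over all 10 libraries, where the difference between sources carries most of the spread, the 5 most like miR-143-3p of 233 were miR-378a-3p (0.955), miR-22-3p (0.927), miR-378c (0.913), miR-106b-5p (0.908) and miR-100-5p (0.906). There miR-145a-3p came 16th (0.879) and miR-145a-5p 57th (0.795).

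**Figure D5:**
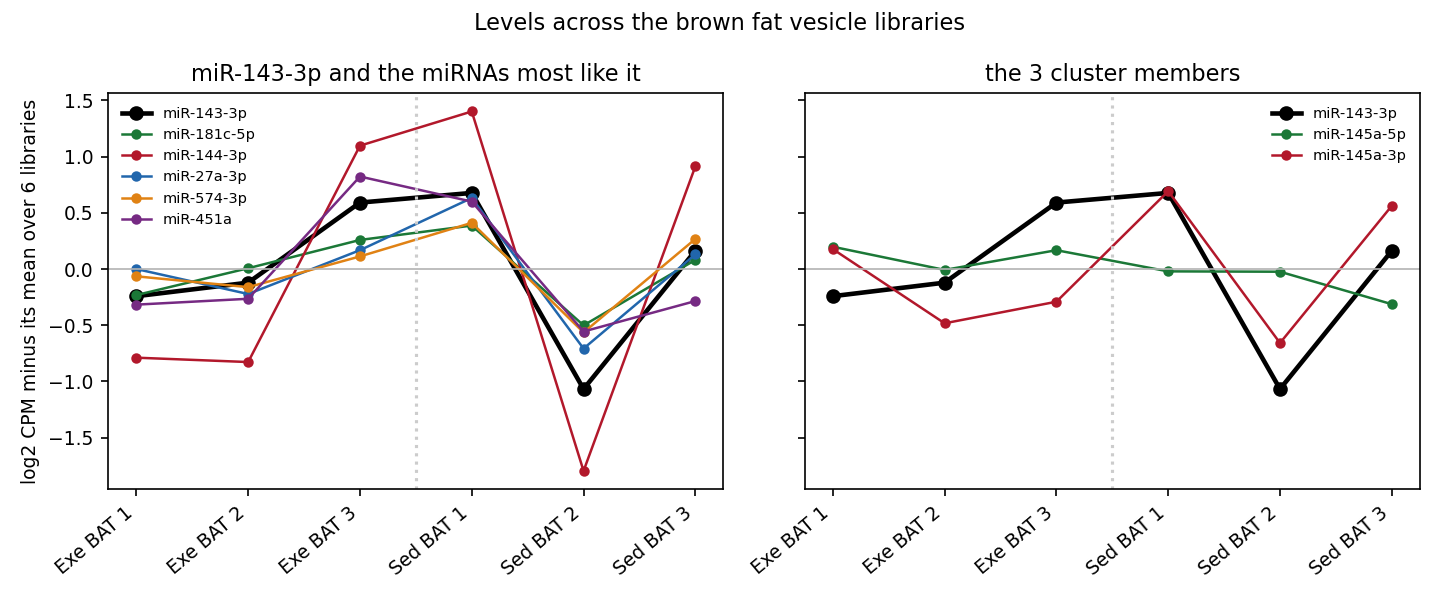
Lines join each miRNA's log2 CPM in the 6 BAT libraries, centred on its own mean, with Exe left of the dotted line. On the left the miRNAs most like miR-143-3p share its dip in Sed BAT replicate 2; on the right miR-145a-5p stays near 0 where miR-143-3p does not.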

How the data were processed

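Per the labels' protocols, Trizol was used to extract the vesicle RNA, and libraries followed Illumina's standard steps. Bowtie 0.12.2, mm8 and mm9 are named, without a role, per the submitters' processing notes. For the counter, the miRBase release, trimming and filters, settings were not given in the sources used here. As 1 table per source, the authors deposited read counts per mature miRNA, per the file headers, and RPM in the BAT table. The second plasma number is a whole-number count as deposited, used only as an alternative.

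Counts were tested as deposited with edgeR 4.0.16 (R 4.3.3): TMM scaling, filterByExpr, robust quasi-likelihood, Benjamini-Hochberg adjustment over all tested miRNAs, threshold 0.05. Exe was set against Sed within each source, and BAT against plasma and the difference of effects in a joint fit of 4 groups. SE is the size of the log2 fold change over the square root of F. Ratios used reads + 0.5 and two-sided exact permutation tests (scipy 1.17.1). Scripts were tested on simulated data. Alternatives were DESeq2 1.42.0, limma-voom (3.58.1), other scalings and filters, the second plasma counts, identical miRNAs counted once, the replicate number as a block, and each library left out. Named miRNAs are the members, other products of their hairpins, list members past the threshold or otherwise the 4 most abundant, and the 5 most alike. miRNA depth ran from 104064 to 1798169 reads a library, so 0 reads allows a share of 0.00288% down to 0.000167%. Members and lists were chosen with earlier results of these data known.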

Additional observations from a re-analysis of the deposited data

Results flagged for a closer look

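The passenger strand miR-143-5p, which entered no comparison of the members, had 5 reads in Exe BAT replicate 1, more than the 1 read at most in a Sed BAT library and above the limit of 3 reads that a count of 0 allows. The other Exe BAT libraries had 1 and 0.

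In the second whole numbers deposited for plasma, miR-145a-5p stood at 721.1 per 1000000 of their total in Exe plasma replicate 1. It stood at 21.3 in Exe plasma replicate 2, and at 7.39 and 107 in Sed plasma, so 1 Exe library was above both Sed libraries. Groups of 3 and 2 libraries are too small for a check for single outlying values.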

How the results depend on the processing

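Of 252 values of the members under the alternatives, 242 kept the sign of the reported value and none of the called values reversed. Exe BAT against Exe plasma: miR-145a-3p no longer passed with no filter (4.17) or with the replicate block (4.34), nor miR-145a-5p with the block (4.08). Sed BAT against Sed plasma: miR-143-3p passed with DESeq2 (1.76), upper-quartile factors (1.57), library size alone (4.00), without the 3 most abundant miRNAs (1.90), with no filter (1.66), at a mean of at least 50 reads (2.29) and with identical miRNAs counted once (1.61), and miR-145a-3p with DESeq2 (4.43), limma-voom (4.61), library size alone (6.27) and without the 3 most abundant (4.40). The difference of effects for miR-143-3p passed with upper-quartile factors (2.62). The cause of these was not tested.

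Leaving out 1 library each, values ranged for Exe BAT against Exe plasma from 3.25 to 8.51 (miR-145a-5p) and 3.48 to 8.01 (miR-145a-3p), for Sed BAT against Sed plasma from 1.26 to 1.96 (miR-143-3p), 5.64 to 8.24 (miR-145a-5p) and 2.81 to 8.602 (miR-145a-3p), and for the difference of effects from 0.78 to 2.32 (miR-143-3p), -4.22 to 2.14 (miR-145a-5p) and -4.28 to 4.31 (miR-145a-3p).

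Counts of all miRNAs called: in BAT 45, but 21 at a mean of at least 50 reads, 25 with the replicate block and 16 to 56 with 1 library left out. In plasma 0, but 59 with DESeq2, 35 with limma-voom, 4 with upper-quartile factors, 10 with library size alone, 1 without the 3 most abundant, 17 with no filter, 29 at a mean of at least 50 reads, 7 with the block, 11 with the second numbers and 3 to 27 with 1 library left out. For Exe BAT against Exe plasma 156, but 82 at a mean of at least 50 reads. For Sed BAT against Sed plasma 99, but 150 with DESeq2, 152 with library size alone and 77 to 149 with 1 library left out. For the difference of effects 68, but 34 with the block, 44 with the second numbers and 36 to 119 with 1 library left out. miR-145a-3p was not tested at a mean of at least 50 reads.

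Replicate numbers only name libraries in the labels. Deviations of same-numbered libraries from their group means correlated at 0.00425, -0.0833 and -0.12 in BAT and -0.0755 in plasma. Such deviations sum to 0 within a group, and with 2 plasma libraries a group they are mirror images. The values therefore show no pairing but cannot exclude it. Depth limits miR-145a-3p, with 13 to 39 reads in a BAT library and 0 to 8 in a plasma library.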
